A study of Mus musculus with 18 samples.

Results

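Transcripts of genes of homologous recombination and of the Fanconi anaemia pathway were measured for 32 of a list of 36 genes. Each of the 32 had a transcript cluster (a probe set that follows a transcribed locus) annotated with that symbol alone. There was exactly 1 such cluster per gene, and 30176 genes in all were measured in this way. Rad51d and Rad54b share their clusters with another symbol and were left out, and Xrcc2 and Rbbp8 were not analysed here. The transcripts were followed in M12-5B3, a mouse B lymphoma line deficient in p53, after depletion of the transcription factors USF1 and USF2, which bind the E-box CACGTG, and after ionizing radiation. Homologous recombination copies lost sequence from an intact sister chromatid to mend breaks that cut both DNA strands. The Fanconi anaemia pathway works beside it: a core complex on DNA crosslinks attaches ubiquitin to FANCD2 and FANCI, and nucleases and recombination proteins then finish the repair. Many of these genes are transcribed most in cells that replicate their DNA, and B cells depend on break repair because they cut and rejoin their own antibody genes.

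The data come from 18 Affymetrix Mouse Transcriptome 1.0 arrays in 6 groups of 3. The control line, sshRNA, carries a scrambled short hairpin RNA, and the USFKD line carries hairpins against Usf1 and Usf2. Both were made from M12-5B3 by lentiviral transduction and selected as puromycin-resistant clones, and tetracycline was kept in the medium of M12-5B3 cells to hold RAG transgenes silent. Each line was profiled without irradiation (no IR), and 1 day (1d IR) and 7 days (7d IR) after 5 Gy from a cobalt-60 source. There is 1 untreated group per line for both times, so an effect of irradiation and an effect of days in culture cannot be told apart. With 1 control and 1 knockdown line, a difference between the lines cannot be told apart from a difference between clones, and p-values measure the spread between the 3 arrays of a group. The deposited values are log2 intensities, in which 1 unit is a factor of 2 in signal, and they compare a gene between arrays but not 1 gene with another. A gene was called changed at an adjusted p under 0.05, by limma over all 72688 rows of the table, together with a fold change over 1.5.

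Usf2 was lower in USFKD at every time. Usf2 read 9.32, 9.12 and 8.68 on the 3 sshRNA no IR arrays, 9.19, 9.0 and 9.06 at 1d IR and 10.04, 9.62 and 10.15 at 7d IR. In USFKD, Usf2 read 6.73, 6.97 and 6.97 without irradiation, 6.99, 7.23 and 7.16 at 1d IR and 6.42, 6.62 and 6.62 at 7d IR. Every USFKD array lay under every sshRNA array. The log2 differences were -2.15 ± 0.16 without irradiation, -1.95 ± 0.16 at 1d IR and -3.39 ± 0.16 at 7d IR (adjusted p = 6.35e-07, 1.76e-06 and 4.84e-09). Usf1 read between 5.03 and 5.35 on all 18 arrays and was not called, so the arrays do not show the depletion of its transcript. The B cell markers Cd79a, Cd79b, Ms4a1 and Pax5 read between 9.17 and 13.59 on every array, and 6 T cell markers between 3.50 and 4.96. Cd79a was called lower in USFKD at each time (-0.96, -1.19 and -1.34), and Ms4a1 (0.81) and Pax5 (1.25) were called higher at 7d IR. The dim limit was 4.67, under which 95% of sensory receptor genes (olfactory and vomeronasal) read, and all 32 repair genes lay above it. Of the plasma cell markers, Prdm1 and Sdc1 had means of 7.47 and 5.01 over the 18 arrays, above that limit, and Tnfrsf17 had 4.33, under it. Adgre1, a macrophage marker, read 4.49 to 4.74 in sshRNA and 6.67 to 7.22 in USFKD, while Cd14, Lyz2, Csf1r, Itgam and Mpo stayed at or under 4.82 on all arrays. The part of these differences in the results was not tested.

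Promoter sequence gives the setting for these transcripts, and the windows of Brca1, Xrcc3, Gen1, Fancm and Brip1, 5 genes called higher in USFKD at 2 times or more, and of Eme1, which holds an E-box, are printed here. Each window runs 5′ to 3′ from 250 bases before the start used for the gene to 50 after it, in RefSeq on build GRCm38.p6. The start used can lie inside the annotated span of the gene. For Fancm that span begins at 65074110, before the window. The windows are at chr11:101551906-101552205 (minus strand) for Brca1, chr12:111813830-111814129 (minus) for Xrcc3, chr12:11265758-11266057 (minus) for Gen1, chr12:65075353-65075652 (plus) for Fancm, chr11:86201144-86201443 (minus) for Brip1 and chr11:94653694-94653993 (minus) for Eme1. Capitals mark exact matches on either strand to the E-box CACGTG, to CCAAT, to TTGGCGC and the variants TTCCCGC or TTGCCGC or TTCGCGC (letters of the E2F type) and to TTTGAA or TTCGAA (letters of the cell cycle homology region).
Brca1: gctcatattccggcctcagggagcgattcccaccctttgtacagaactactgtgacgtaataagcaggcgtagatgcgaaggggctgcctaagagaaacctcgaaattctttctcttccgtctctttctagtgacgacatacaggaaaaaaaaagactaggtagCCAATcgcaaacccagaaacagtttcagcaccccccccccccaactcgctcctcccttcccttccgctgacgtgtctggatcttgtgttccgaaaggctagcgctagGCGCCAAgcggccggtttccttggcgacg
Xrcc3: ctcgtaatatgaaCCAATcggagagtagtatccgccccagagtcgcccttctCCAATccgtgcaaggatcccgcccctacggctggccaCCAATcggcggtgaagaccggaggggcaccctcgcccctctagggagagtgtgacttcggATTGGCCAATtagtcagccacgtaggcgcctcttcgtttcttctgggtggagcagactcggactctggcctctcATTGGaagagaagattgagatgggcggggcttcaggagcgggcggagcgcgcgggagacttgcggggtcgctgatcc
Gen1: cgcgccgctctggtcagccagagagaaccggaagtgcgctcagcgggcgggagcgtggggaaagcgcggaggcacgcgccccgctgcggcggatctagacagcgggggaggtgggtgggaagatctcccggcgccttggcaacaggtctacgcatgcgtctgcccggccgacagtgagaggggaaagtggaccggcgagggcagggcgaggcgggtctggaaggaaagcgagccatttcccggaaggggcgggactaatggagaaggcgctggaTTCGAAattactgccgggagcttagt
Fancm: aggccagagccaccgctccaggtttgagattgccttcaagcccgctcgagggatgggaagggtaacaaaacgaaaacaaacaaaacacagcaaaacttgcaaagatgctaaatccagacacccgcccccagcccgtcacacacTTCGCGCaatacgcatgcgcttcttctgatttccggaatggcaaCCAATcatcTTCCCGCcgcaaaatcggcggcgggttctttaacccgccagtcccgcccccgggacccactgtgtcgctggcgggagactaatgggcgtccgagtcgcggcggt
Brip1: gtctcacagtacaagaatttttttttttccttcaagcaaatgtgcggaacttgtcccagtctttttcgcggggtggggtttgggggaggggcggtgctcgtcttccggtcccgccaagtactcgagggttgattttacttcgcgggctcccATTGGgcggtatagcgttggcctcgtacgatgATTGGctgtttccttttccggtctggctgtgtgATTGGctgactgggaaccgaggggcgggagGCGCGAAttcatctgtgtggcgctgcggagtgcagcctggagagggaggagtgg
Eme1: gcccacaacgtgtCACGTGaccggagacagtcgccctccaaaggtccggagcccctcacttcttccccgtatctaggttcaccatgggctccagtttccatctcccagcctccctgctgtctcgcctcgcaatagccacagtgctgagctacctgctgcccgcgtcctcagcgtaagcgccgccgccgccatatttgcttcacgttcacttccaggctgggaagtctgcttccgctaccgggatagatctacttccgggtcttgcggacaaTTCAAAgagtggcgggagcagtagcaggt

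Windows were found for 27 of the 32 genes, with none listed for the others. CACGTG occurred in 2 of them (7.4%), in Eme1 at -237 and in Slx4 at -208, counted to the first base of the match, and in 8.1% of the 27025 genes with a window. Positions count from the start used for the window, which for both genes lies inside the annotated span. Brca1, Xrcc3, Gen1, Fancm and Brip1 held none within these 300 bases. Letters of the E2F type occurred in 13 of 27 (48.1%) against 10.9% of all genes, and CCAAT in 16 of 27 (59.3%) against 41.1%. Xrcc3 carried 6 CCAAT matches, of which those at -101 and -96 abut, and Brip1 carried 3. The cell cycle homology letters occurred in 4 of 27 (14.8%) against 21.7%. On the other strand CCAAT ends in the first letters of TTGGCGC, so both can match at the same place. These matches describe letters in a window and carry no measurement of binding.

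**Figure D1:**
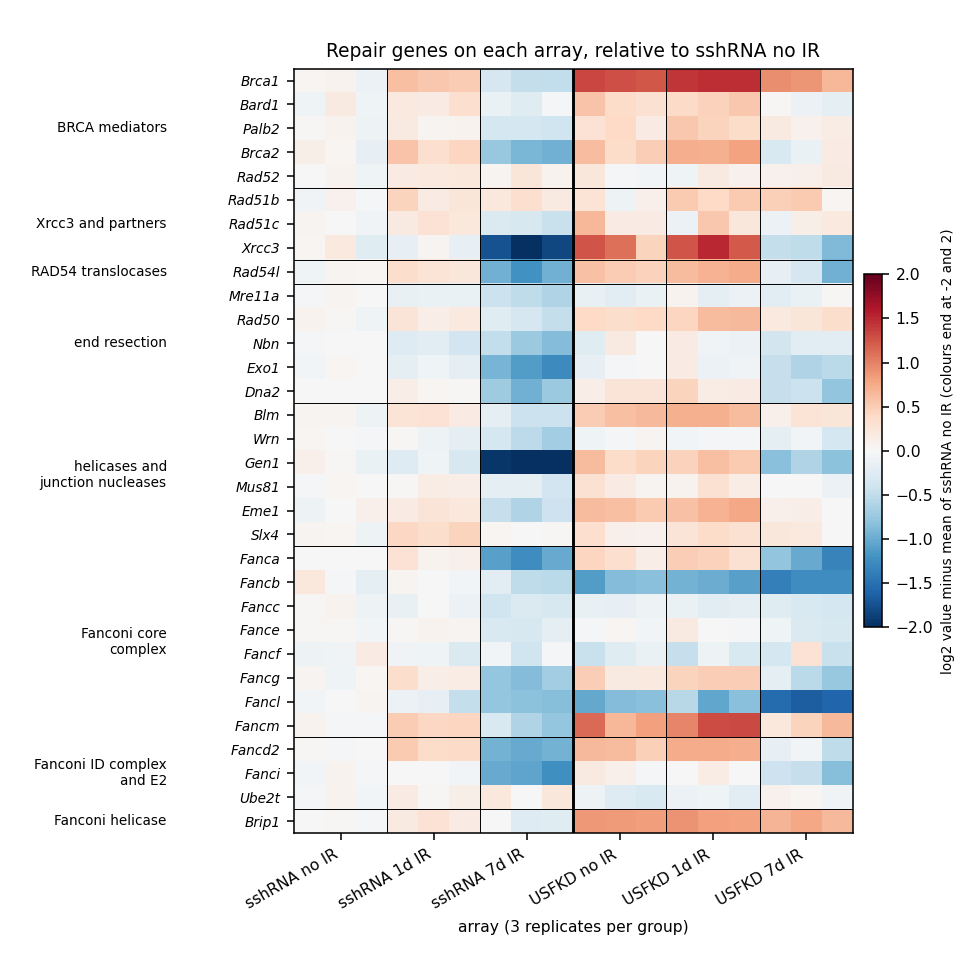
Log2 value of the 32 genes (rows, grouped by role) on each of the 18 arrays (columns, 3 per group), as the difference from the mean of sshRNA no IR, with colours that end at -2 and 2. Brca1, Xrcc3, Fancm and Brip1 are higher in USFKD than in sshRNA at each time, Fancb and Fancl are lower, and most rows are lower at 7d IR in both lines.

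Before irradiation, 6 of the 32 genes (18.8%) were called higher in USFKD (Brca1, Xrcc3, Fancm, Brip1, Fancd2 and Blm) and 2 lower (Fancb and Fancl). The same rule called 1.86% of all 65956 transcript clusters higher and 2.6% lower, or 4.5% and 8.52% of the 15541 genes above the dim limit. The median log2 difference of the 32 was 0.25, against -0.02 over the genes above the dim limit. At 1d IR, 5 were called higher and 1 lower with a median of 0.22, where 1.6% and 1.8% of clusters (5.24% and 5.1% of genes) were called and the median over genes was 0.02. At 7d IR, 8 were called higher and 2 lower with a median of 0.41, where 2.8% and 3.65% of clusters (7.32% and 9.2% of genes) were called and the median over genes was -0.03. Over the 3 times, 19 genes had a higher mean in USFKD each time, 4 a lower one and 9 changed sign, and 11 were called at 1 time or more. These counts over the times were not made for all genes, so they have no share to stand beside. The 3 comparisons share no arrays, but they share the 2 lines.

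Among the BRCA mediators, which act on resected DNA before strand exchange, Brca1 stood apart most clearly. Brca1 read 8.24, 8.27 and 8.08 on the 3 sshRNA no IR arrays, 8.79, 8.73 and 8.71 at 1d IR and 7.86, 7.72 and 7.71 at 7d IR. In USFKD, Brca1 read 9.53, 9.48 and 9.44 without irradiation, 9.63, 9.67 and 9.67 at 1d IR and 9.12, 9.08 and 8.86 at 7d IR. No array of the lines overlapped at any time. The log2 differences were 1.29 ± 0.08, 0.91 ± 0.08 and 1.26 ± 0.08 in the order of the times, or 2.44-, 1.88- and 2.39-fold (adjusted p = 1.43e-07, 4.77e-06 and 1.73e-07). Even the lowest USFKD array, at 7d IR, exceeded the highest sshRNA array, at 1d IR. Brca2 read 8.48, 8.39 and 8.20 on the 3 sshRNA no IR arrays, 8.93, 8.70 and 8.79 at 1d IR and 7.61, 7.45 and 7.40 at 7d IR. In USFKD, Brca2 read 8.98, 8.73 and 8.86 without irradiation, 9.09, 9.06 and 9.17 at 1d IR and 8.05, 8.22 and 8.52 at 7d IR. The arrays of the lines did not overlap at any time, and in each line they were lowest at 7d IR. Brca2, a tumour suppressor gene required for strand exchange, was called higher at 7d IR (0.78 ± 0.12, adjusted p = 0.000484) and lay under the fold limit without irradiation (0.50, adjusted p = 0.0153). Palb2, the bridge between both proteins, passed the adjusted p alone at each time, with 0.28, 0.35 and 0.50. Bard1, the partner of BRCA1, differed by 0.42, 0.23 and 0.04, of which the first alone passed the adjusted p. Rad52, which anneals single strands, stayed within -0.13 and 0.05.

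Of Xrcc3, Rad51b and Rad51c, whose products work in complexes with each other during recombination, Xrcc3 was called higher at each time. Xrcc3 read 7.90, 8.05 and 7.61 on the 3 sshRNA no IR arrays, 7.69, 7.91 and 7.70 at 1d IR and 6.11, 5.78 and 6.03 at 7d IR. In USFKD, Xrcc3 read 9.12, 8.95 and 8.30 without irradiation, 9.12, 9.37 and 9.08 at 1d IR and 7.37, 7.34 and 6.97 at 7d IR. The arrays of the lines did not overlap at any time, although the lowest USFKD array without irradiation was close to the highest sshRNA array. Differences were 0.94 ± 0.19, 1.42 ± 0.19 and 1.26 ± 0.19 (adjusted p = 0.00539, 0.000234 and 0.000472). The first had an adjusted p of 0.0643 when the 6 arrays compared were fitted alone. Rad51c, the partner of XRCC3, differed by 0.33, -0.01 and 0.42 and Rad51b by 0.09, 0.20 and 0.11, none past the test. Rad54l, a motor protein that remodels DNA during strand exchange, differed by 0.52, 0.40 and 0.56 and was under the fold limit each time.

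Among the helicases and junction nucleases, the difference in Gen1, a resolvase that cuts crossed DNA strands, was largest at 7d IR. Gen1 read 10.27, 10.20 and 10.04 on the 3 sshRNA no IR arrays, 9.91, 10.08 and 9.85 at 1d IR and 8.22, 8.17 and 7.70 at 7d IR. In USFKD, Gen1 read 10.81, 10.53 and 10.61 without irradiation, 10.63, 10.77 and 10.69 at 1d IR and 9.33, 9.56 and 9.35 at 7d IR. All USFKD arrays lay above the sshRNA arrays of the same time, most widely at 7d IR. The difference was 0.48 ± 0.13 without irradiation, where the fold was under the limit, then 0.75 ± 0.13 and 1.39 ± 0.13 (adjusted p = 0.0336, 0.00191 and 6.14e-06). Blm read 10.93, 10.93 and 10.77 on the 3 sshRNA no IR arrays, 11.15, 11.16 and 11.04 at 1d IR and 10.68, 10.45 and 10.44 at 7d IR. In USFKD, Blm read 11.37, 11.48 and 11.53 without irradiation, 11.58, 11.58 and 11.51 at 1d IR and 10.97, 11.16 and 11.12 at 7d IR. The lines were apart at each time, with USFKD higher. Blm, a RecQ helicase that dissolves joined chromatids, differed by 0.59 ± 0.09, 0.44 and 0.56, each with an adjusted p under the threshold and only the first just past the fold limit. Without sshRNA no IR replicate 3, USFKD no IR replicate 2 or USFKD no IR replicate 3 that value was 0.53, 0.58 or 0.55 and no longer called, nor was it with arrays centred on bright clusters (0.56). Eme1, the partner of the nuclease MUS81, ran the same course under the fold limit (0.58, 0.47 and 0.57, adjusted p = 0.000221, 0.00161 and 0.000229). Mus81 itself, the helicase gene Wrn and Slx4, a scaffold for nucleases, had differences between -0.09 and 0.32 and were not called.

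End resection genes, whose products trim a break to single strands, differed less. Rad50, a subunit of the MRE11 complex that holds broken ends, was the only one called. Rad50 read 10.95, 10.90 and 10.79 on the 3 sshRNA no IR arrays, 11.14, 11.01 and 11.08 at 1d IR and 10.64, 10.54 and 10.41 at 7d IR. In USFKD, Rad50 read 11.27, 11.23 and 11.27 without irradiation, 11.30, 11.52 and 11.54 at 1d IR and 11.07, 11.13 and 11.23 at 7d IR. Rad50 was higher on the USFKD arrays than on the sshRNA arrays of the same time, without overlap. The difference was 0.38, 0.37 and, at 7d IR, 0.61 ± 0.08 (adjusted p = 0.000225), and it fell under the fold limit without sshRNA 7d IR replicate 3 (0.55) or USFKD 7d IR replicate 3 (0.57), or with arrays centred on bright clusters (0.57). With arrays centred within each chromosome, an alternative chosen after seeing the data, it was 0.31 (adjusted p = 0.0905). Mre11a, Nbn and Exo1 differed by -0.16, -0.03 and -0.06 without irradiation and by 0.41, 0.44 and 0.57 at 7d IR, where all of them passed the adjusted p but not the fold limit. Dna2 was at 0.22, 0.19 and 0.24 and passed neither.

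The Fanconi genes went in both directions. Fancm, whose product carries the core complex to DNA, was higher in USFKD. Fancm read 8.14, 8.05 and 8.03 on the 3 sshRNA no IR arrays, 8.58, 8.49 and 8.50 at 1d IR and 7.77, 7.48 and 7.31 at 7d IR. In USFKD, Fancm read 9.21, 8.73 and 8.89 without irradiation, 9.04, 9.38 and 9.39 at 1d IR and 8.28, 8.51 and 8.72 at 7d IR. No arrays of the lines overlapped within a time. Its differences were 0.87 ± 0.15, 0.75 ± 0.15 and 0.99 ± 0.15 (adjusted p = 0.00144, 0.00547 and 0.000444). Brip1, a helicase that binds BRCA1, was also higher each time. Brip1 read 10.33, 10.34 and 10.30 on the 3 sshRNA no IR arrays, 10.51, 10.61 and 10.48 at 1d IR and 10.34, 10.07 and 10.09 at 7d IR. In USFKD, Brip1 read 11.19, 11.18 and 11.16 without irradiation, 11.23, 11.14 and 11.13 at 1d IR and 11.01, 11.09 and 10.98 at 7d IR. The USFKD arrays lay above every sshRNA array whatever the time, and the differences were 0.85 ± 0.08, 0.64 ± 0.08 and 0.86 ± 0.08 (adjusted p = 5.04e-06, 0.000101 and 4.52e-06). Fancd2, a substrate of the core complex, was called higher without irradiation and at 7d IR. Fancd2 read 10.44, 10.40 and 10.40 on the 3 sshRNA no IR arrays, 10.94, 10.78 and 10.79 at 1d IR and 9.46, 9.40 and 9.47 at 7d IR. In USFKD, Fancd2 read 11.06, 11.05 and 10.88 without irradiation, 11.16, 11.15 and 11.14 at 1d IR and 10.25, 10.35 and 9.91 at 7d IR. USFKD was above sshRNA on every array of the same time, most narrowly at 1d IR. It differed by 0.59 ± 0.10, 0.32 ± 0.10 and 0.73 ± 0.10 (adjusted p = 0.00128, 0.0873 and 0.000189). The value without irradiation was between 0.56 and 0.58, and not called, when sshRNA no IR replicate 2 or 3 or USFKD no IR replicate 1 or 2 was left out or arrays were centred on bright clusters. Fanci, the partner of FANCD2, differed by 0.09, 0.07 and 0.52, the last with an adjusted p of 0.00517 but under the fold limit.

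Fancb and Fancl, which sit together in the part of the core complex that carries its ubiquitin ligase, were lower in USFKD. Fancb read 10.04, 9.80 and 9.65 on the 3 sshRNA no IR arrays, 9.89, 9.82 and 9.77 at 1d IR and 9.61, 9.33 and 9.30 at 7d IR. In USFKD, Fancb read 8.72, 8.96 and 9.0 without irradiation, 8.89, 8.83 and 8.74 at 1d IR and 8.47, 8.59 and 8.59 at 7d IR. Every USFKD array lay under every sshRNA array, with differences of -0.94 ± 0.11, -1.0 ± 0.11 and -0.86 ± 0.11 (adjusted p = 6.97e-05, 4.33e-05 and 0.000134). Fancl read 10.53, 10.59 and 10.63 on the 3 sshRNA no IR arrays, 10.47, 10.42 and 10.10 at 1d IR and 9.81, 9.76 and 9.73 at 7d IR. In USFKD, Fancl read 9.56, 9.72 and 9.75 without irradiation, 10.02, 9.54 and 9.74 at 1d IR and 9.04, 8.94 and 8.99 at 7d IR. The lines did not overlap within a time, although the highest USFKD array at 1d IR came close to the lowest of sshRNA. Fancl, the ligase itself, differed by -0.91 ± 0.12, -0.56 ± 0.12 and -0.77 ± 0.12 (adjusted p = 0.000129, 0.0078 and 0.000454), and the middle value was just under the fold limit. Fanca, Fancc, Fance, Fancf and Fancg, the other core genes, had differences between -0.27 and 0.30 at all times and were not called. Ube2t, the enzyme that hands ubiquitin to FANCL, was slightly lower each time (-0.22, -0.25 and -0.13) and was not called.

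**Figure D2:**
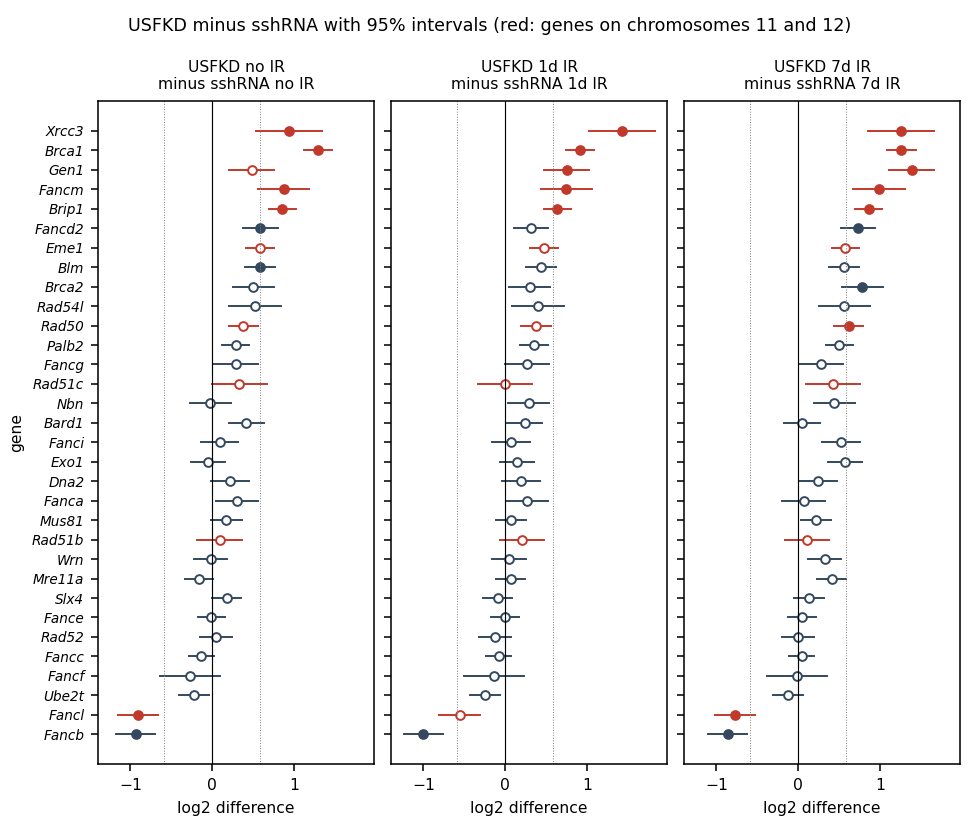
Log2 difference of USFKD minus sshRNA for the 32 genes at each time (panels), with 95% intervals from the limma fit, filled points for called genes, dotted lines at a fold of 1.5 and red for genes on chromosomes 11 and 12. Brca1, Xrcc3, Fancm and Brip1 are called higher in all 3 panels and Fancb lower in all 3.

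Many of the genes that were higher in USFKD lie on the same 2 chromosomes. Of the 9 genes called higher at 1 time or more, 6 lie on chromosome 11 (Brca1, Brip1 and Rad50) or 12 (Xrcc3, Fancm and Gen1), where 10 of the 32 genes lie in all. Those 10 had a median difference of 0.53 without irradiation, 0.55 at 1d IR and 0.74 at 7d IR, against 0.13, 0.10 and 0.26 for the 22 on other chromosomes. Rad51b, Rad51c and Eme1, also on these chromosomes, were not called, and Fancl, on chromosome 11, was lower. Chromosomes 11 and 12 carried the 2 highest medians of any chromosome in each comparison. Over their 1827 genes above the dim limit the median was 0.17, 0.24 and 0.15 and 13.5%, 16.8% and 16.6% were called higher, against medians of -0.04, -0.0042 and -0.04 and 3.31%, 3.68% and 6.07% for 13542 genes elsewhere. The share of the repair genes' differences that goes with their chromosome was not tested.

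The neighbours of each gene give a nearer measure, taken over up to 25 genes above the dim limit on either side. Around Brca1 the 50 neighbours had medians of 0.39, 0.43 and 0.24 at the 3 times, and 11, 13 and 11 of them were called higher. Brip1 had neighbour medians of 0.30, 0.34 and 0.29, and Fancm of 0.28, 0.28 and 0.36, while those of Gen1 were 0.05, 0.11 and 0.06. Each of these genes lay above its neighbours, by 0.90, 0.48 and 1.02 for Brca1 and by 0.56, 0.29 and 0.57 for Brip1. Fancb, on the X chromosome, had neighbours that were lower too, with medians of -0.41, -0.34 and -0.29 and 20 of 48 called lower without irradiation. Fancl differed from its surroundings, which had medians of -0.0022, 0.07 and -0.01. When every array was centred on the median of each chromosome, an alternative chosen after seeing the data, Brca1 was at 0.99 and 0.96 and called without irradiation and at 7d IR, and at 0.56 and not called at 1d IR. Xrcc3 kept its call at each time (0.67, 1.09 and 1.02), whereas Brip1 lost its call at each time (0.56, 0.28 and 0.56, adjusted p = 0.00169, 0.102 and 0.00127). Fancm kept its call without irradiation and at 7d IR (0.61 and 0.75) and lost it at 1d IR (0.42, adjusted p = 0.152), where Gen1 lost its call too (0.42, adjusted p = 0.0908). Of the 6 calls at 1d IR, those of Xrcc3 and Fancb remained, and Fancl was called in addition (-0.92). At 7d IR, Rad50 lost its call (0.31, adjusted p = 0.0905), and Rad54l (0.60) and Mre11a (0.59) gained one, as Brca2 (0.73), Rad54l (0.65) and Bard1 (0.60) did without irradiation. The centring did not always move genes by the median differences of their chromosomes. Without irradiation Brca1 went from 1.29 to 0.99, where chromosome 11 had a median difference of 0.16. Brca2 went from 0.50 to 0.73, where that of chromosome 5 was -0.06. Calls lost or gained under this centring therefore do not measure those median differences.

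**Figure D3:**
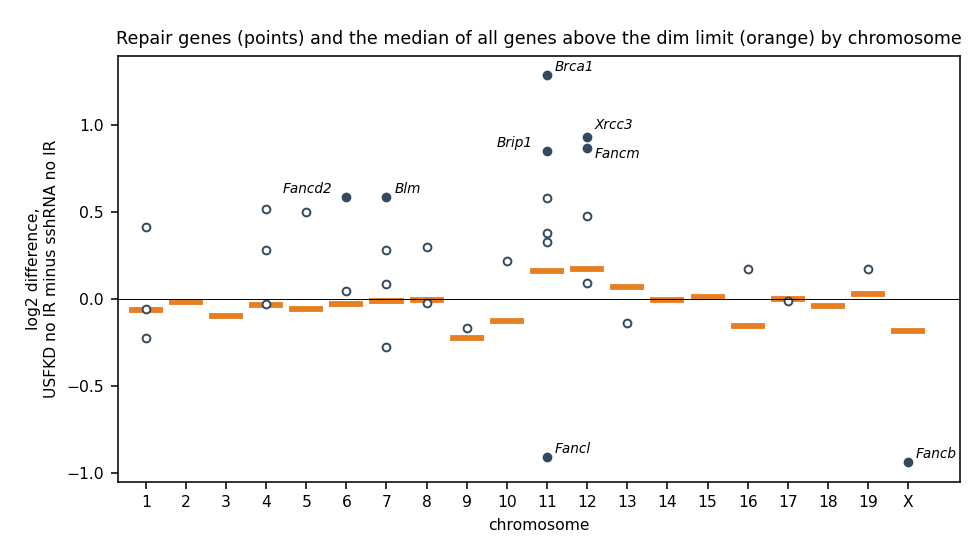
Log2 difference of USFKD no IR minus sshRNA no IR for the 32 genes (points, filled and named where called) by chromosome, with the median of all genes above the dim limit on that chromosome in orange. The orange medians of chromosomes 11 and 12 are 0.16 and 0.17, the 2 highest, and Brca1, Brip1, Xrcc3 and Fancm lie above them.

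At 1 day after 5 Gy, no repair gene was called in either line. In sshRNA, Brca1 was 0.55 ± 0.08 above no IR (adjusted p = 0.00283), Fancd2 0.42 ± 0.10 (adjusted p = 0.0305) and Slx4 0.40 ± 0.08 (adjusted p = 0.0181), all under the fold limit, the only genes past the adjusted p alone (3 of 32, against 2.29% of clusters and 3.3% of genes higher at that limit). The rule called 1.76% of clusters higher and 0.249% lower in that comparison, and 2.23% and 0.939% of genes above the dim limit. By limma, 13 of the 32 and 9895 of all clusters had an unadjusted p under 0.05, and the median change was 0.13, which became -0.01 when arrays were centred on bright clusters. In USFKD, 3 of the 32 and 5465 of all clusters had an unadjusted p under 0.05, the median change was 0.08 (-0.07 with that centring), and no cluster at all was called (0% in both directions). The 1-day responses of the lines did not differ past the test for any gene, with an unadjusted p under 0.05 for 3 of the 32 and 4286 of all clusters and no cluster called. For Brca1 that difference was -0.38 ± 0.11 (adjusted p = 0.631), with a 95% interval from -0.62 to -0.13.

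By 7 days, part of the recombination transcripts had fallen in both lines. In sshRNA, 12 of the 32 genes (37.5%) were called lower than without irradiation (Gen1, Xrcc3, Fanca, Exo1, Fanci, Rad54l, Fancd2, Brca2, Fancl, Dna2, Fancg and Nbn) and none higher, with a median change of -0.46. The rule called 4.81% of clusters lower and 11.5% higher there, or 16.3% and 15.2% of genes above the dim limit, whose median change was -0.02. In USFKD, 10 (31.2%) were called lower and none higher, with a median of -0.36, where 2.66% of clusters were called lower and 7.29% higher (9.14% and 9.84% of genes, median 0.01). All 10 were among the 12 of sshRNA, and Exo1 and Nbn were called in sshRNA alone. From 1d IR to 7d IR, 14 fell in sshRNA (4.33% of clusters and 12.4% of genes called lower) and 13 in USFKD (3.52% and 10.9%), and none rose in either line, where 7.86% and 4.95% of clusters (12.4% and 6.26% of genes) were called higher. These comparisons use the 7d IR arrays again and are not independent of those against no IR.

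Gen1 and Xrcc3 fell furthest in sshRNA, and Xrcc3, Fanca and Gen1 in USFKD. Gen1 dropped by 2.14 ± 0.13 on the log2 scale in sshRNA (4.41-fold, adjusted p = 7.30e-08) and by 1.23 ± 0.13 in USFKD (2.35-fold, adjusted p = 2.30e-05). Xrcc3 dropped by 1.88 ± 0.19 in sshRNA (3.69-fold) and by 1.56 ± 0.19 in USFKD (2.95-fold), with adjusted p of 4.69e-06 and 7.02e-05. For both genes the 7d IR arrays of a line lay under all its earlier arrays. Fanca read 6.92, 6.91 and 6.89 on the 3 sshRNA no IR arrays, 7.20, 6.98 and 7.01 at 1d IR and 5.81, 5.67 and 5.89 at 7d IR. In USFKD, Fanca read 7.34, 7.24 and 7.04 without irradiation, 7.40, 7.36 and 7.22 at 1d IR and 6.11, 5.89 and 5.57 at 7d IR. The lines overlapped at 7d IR, where each lay under all its earlier arrays. Fanca, a subunit of the core complex, fell in both lines (-1.11 ± 0.12 and -1.35 ± 0.12, adjusted p = 9.67e-06 and 7.80e-06), and the difference between these changes was -0.23 ± 0.17, with a 95% interval from -0.60 to 0.14 (adjusted p = 0.542).

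Rad54l read 8.84, 8.98 and 8.97 on the 3 sshRNA no IR arrays, 9.29, 9.21 and 9.15 at 1d IR and 7.97, 7.72 and 7.97 at 7d IR. In USFKD, Rad54l read 9.52, 9.44 and 9.39 without irradiation, 9.56, 9.63 and 9.67 at 1d IR and 8.77, 8.60 and 7.98 at 7d IR. The 7d IR arrays lay under all earlier arrays of their line. Its change was -1.05 ± 0.15 in sshRNA and -1.0 ± 0.15 in USFKD (adjusted p = 8.64e-05 and 0.000303), and 1 of the USFKD 7d IR arrays was as low as those of sshRNA. Fancd2 changed by -0.97 and -0.83 and Fanci by -1.10 and -0.67. Without USFKD 7d IR replicate 3 the change of Fanci in USFKD was -0.53 and no longer called. Fancg, a core subunit, changed by -0.77 and -0.78, Dna2, a nuclease of long-range resection, by -0.80 and -0.78, and Fancl by -0.82 and -0.68. Brca2 changed by -0.87 ± 0.12 and -0.59 ± 0.12, and the second was -0.53, -0.49 or -0.57 and not called without USFKD no IR replicate 1, USFKD 7d IR replicate 1 or USFKD 7d IR replicate 2, and had an adjusted p of 0.0561 when the 6 arrays compared were fitted alone. Centring within each chromosome ended the calls of Brca2 in both lines (-0.52 and -0.51), of Dna2 (-0.58) and Nbn (-0.54) in sshRNA and of Fancl in USFKD (-0.55). Brca1 was lower by less (-0.43 and -0.46), with an adjusted p under the threshold in both lines but a fold under the limit, and its fall from 1d IR was called (-0.98 and -0.63). The value of USFKD was -0.55 and not called without USFKD 7d IR replicate 3.

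Not every gene fell. Rad51b, Rad52, Slx4 and Ube2t were at 0.24, 0.13, 0.01 and 0.15 in sshRNA and 0.26, 0.07, -0.03 and 0.25 in USFKD, none past the test. Brip1 changed by -0.16 and -0.15 and passed the test in neither line. Of the rest, Bard1, Palb2, Rad51c, Mre11a, Rad50, Blm, Wrn, Mus81, Eme1, Fancb, Fancc, Fance, Fancf and Fancm changed by values between -0.56 and 0.10 over the lines and were not called against no IR. Many genes without a call were still lower. By the adjusted p alone, 24 of the 32 were lower than without irradiation in sshRNA, 12 of them under the fold limit. In USFKD 16 were lower, 6 of them under the fold limit. The share of all genes lower at the adjusted p alone was not counted for these comparisons. By limma, 25 of the 32 and 29591 of 65956 clusters had an unadjusted p under 0.05, in either direction, in sshRNA. In USFKD, 21 of the 32 and 19474 of the clusters did. From 1d IR to 7d IR, Fancm (-1.01 and -0.77) and Eme1 (-0.71 and -0.60) fell in both lines and Blm in sshRNA (-0.60). Eme1 in USFKD was -0.56 or -0.57 and not called without USFKD 1d IR replicate 3 or USFKD 7d IR replicate 3, and Blm was between -0.58 and -0.56 and not called without sshRNA 1d IR replicate 1 or 2 or sshRNA 7d IR replicate 2 or 3. Centring within each chromosome ended the calls from 1d IR of Blm in sshRNA (-0.50), of Eme1 in both lines (-0.58 and -0.42) and of Brca1 (-0.45) and Fanci (-0.56) in USFKD. Over the 6 groups, 25 of the 32 genes had their lowest mean at sshRNA 7d IR, and 17 had their highest at USFKD 1d IR. The same was not counted for all genes.

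Proliferation genes moved at the same time. Of 16 S phase genes, 10 fell in sshRNA and 8 in USFKD at 7d IR, with medians of -0.84 and -0.59, among them Rrm2 (-2.53 and -1.72), a subunit of the enzyme that makes deoxynucleotides, and the replicative helicase genes Mcm5 (-1.73 and -1.43) and Mcm2 (-1.35 and -1.79). Of 14 genes of G2 and mitosis, 9 fell in each line, with medians of -0.76 and -0.85, among them Plk1 (-2.21 and -1.33), Cenpe (-1.97 and -1.76) and Mki67 (-1.63 and -1.82). At 1d IR the medians of the lists lay between 0.04 and 0.09, and Mki67 was the only gene called, higher in sshRNA (1.13). The arrays at 7d IR also had higher medians over all clusters, 4.46 to 4.59 against 4.32 to 4.40 on the others. The part of either in the fall of the repair genes was not tested. In bulk RNA, fewer cells that express a gene and less transcript per cell cannot be told apart.

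**Figure D4:**
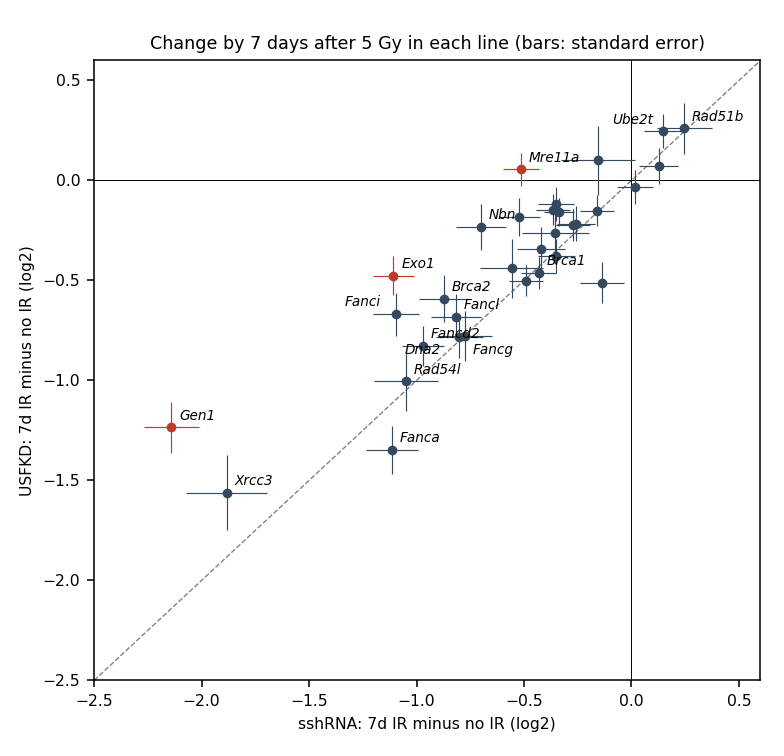
Change from no IR to 7d IR on the log2 scale for the 32 genes in sshRNA (x axis) and USFKD (y axis), with standard errors and a dashed line of equal change. Gen1, Exo1 and Mre11a, in red, lie above the line with a difference past the adjusted p, and Fanca and Bard1 are among the genes under it.

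The 7-day change differed between the lines for 2 called genes, both with the smaller fall in USFKD (the rule called 1.15% of clusters higher and 0.92% lower for this difference, and 3.82% and 1.74% of genes). Gen1 fell by 2.14 in sshRNA and by 1.23 in USFKD, a difference of 0.91 ± 0.18 (adjusted p = 0.0193). Exo1 read 10.32, 10.42 and 10.39 on the 3 sshRNA no IR arrays, 10.20, 10.29 and 10.20 at 1d IR and 9.45, 9.25 and 9.10 at 7d IR. In USFKD, Exo1 read 10.22, 10.35 and 10.39 without irradiation, 10.55, 10.26 and 10.31 at 1d IR and 9.91, 9.77 and 9.84 at 7d IR. The lines overlapped without irradiation and at 1d IR and were apart at 7d IR. Exo1, a nuclease of long-range resection, changed by -1.11 ± 0.10 and -0.48 ± 0.10, a difference of 0.63 ± 0.14 (adjusted p = 0.0277). Mre11a read 10.55, 10.64 and 10.58 on the 3 sshRNA no IR arrays, 10.44, 10.46 and 10.45 at 1d IR and 10.16, 10.08 and 9.99 at 7d IR. In USFKD, Mre11a read 10.43, 10.38 and 10.46 without irradiation, 10.67, 10.41 and 10.48 at 1d IR and 10.37, 10.46 and 10.61 at 7d IR. USFKD was the lower line without irradiation and the higher at 7d IR, and the arrays overlapped at 1d IR. Mre11a, which encodes the nuclease that starts resection, changed by -0.51 in sshRNA and 0.06 in USFKD, a difference of 0.57 ± 0.12 (adjusted p = 0.0211) under the fold limit, so 3 of 32 passed the adjusted p alone, against 1.41% of clusters and 4.79% of genes. Without irradiation the lines differed by 0.48 in Gen1, -0.06 in Exo1 and -0.16 in Mre11a, and at 7d IR by 1.39, 0.57 and 0.41. The change was lower in sshRNA than in USFKD for 24 of the 32 genes, with a median difference of 0.09 against 0.03 over genes above the dim limit. The differences in change over the 32 ran from -0.37 to 0.91. Bard1 fell further in USFKD, where its difference from sshRNA went from 0.42 without irradiation to 0.04 at 7d IR. The 16 S phase genes had a median difference of 0.28, and among the B cell markers Pax5 differed by 0.86 (adjusted p = 0.0249), Ms4a1 by 0.81 (adjusted p = 0.0798), Cd79a by -0.39 and Cd79b by -0.13. Over all 19 cell type markers the median was -0.09, and Pax5 was the only one called. Their part in the result was not tested. These calls rest on few arrays: Gen1 had an adjusted p of 0.0532 and 0.0562 without sshRNA no IR replicate 1 and 2, and Exo1 was lost without any 1 of the sshRNA no IR arrays (adjusted p from 0.0513 to 0.0768), USFKD no IR replicate 1 (0.0642), or sshRNA 7d IR replicate 2 (0.0573) or 3 (0.0564). Centring within each chromosome ended the call of Exo1 too (0.45, adjusted p = 0.0733). Under it Mre11a no longer passed the adjusted p (0.45, adjusted p = 0.0776).

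**Figure D5:**
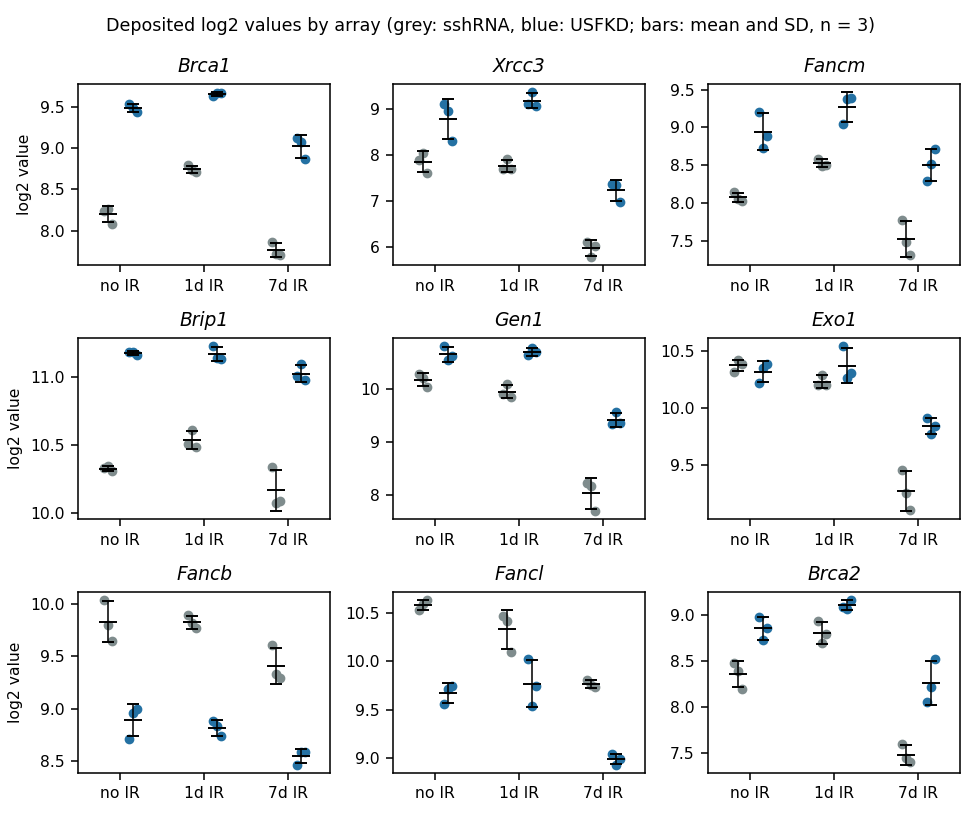
Deposited log2 values of 9 genes on each array by time after 5 Gy (points, grey for sshRNA and blue for USFKD), with the mean and SD of each group of 3 arrays as bars and a separate y axis per gene. Brca1 and Brip1 are apart between the lines at every time, Fancb and Fancl are lower in USFKD, and Gen1 and Exo1 fall further in sshRNA at 7d IR.

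Other genes of recombination and crosslink repair were measured too, 42 of them. Between the lines, 3 (7.14%) were called higher and 1 (2.38%) lower without irradiation, against 4.5% and 8.52% of genes above the dim limit. At 1d IR, 5 (11.9%) and 2 (4.76%) were called, against 5.24% and 5.1% of genes. At 7d IR, 7 (16.7%) and 2 (4.76%) were called, against 7.32% and 9.2%. The medians were 0.04, 0.05 and 0.15. Smc6, a subunit of the SMC5/6 complex, was higher by 0.94, 0.96 and 0.95, and Recql5, a RecQ helicase, by 0.68, 0.76 and 0.59. Brcc3, a deubiquitinase found with BRCA1, differed by -1.30, -1.06 and -1.02. Smc6 lies on chromosome 12, where its annotated span overlaps that of Gen1. Recql5 lies on chromosome 11 and Brcc3 on the X chromosome. The share of these differences that goes with the chromosome was not tested. At 7d IR against no IR, 10 (23.8%) fell and 2 (4.76%) rose in sshRNA, where 16.3% and 15.2% of genes were called. In USFKD 10 (23.8%) fell and 3 (7.14%) rose, where 9.14% and 9.84% of genes were called. The medians were -0.19 and -0.12. Rtel1, a helicase that undoes recombination intermediates, fell by 1.47 and 1.53, and Polq, the polymerase of an alternative end joining route, by 0.99 and 1.43. Abraxas1, a partner of BRCC3, rose by 0.80 in both. For the difference in 7-day change, 2 of the 42 (4.76%) were called, Sfr1 and Usp1, both higher in USFKD, against 3.82% of genes. Sfr1, a recombination factor, changed by 0.72 in USFKD against -0.24 in sshRNA (difference 0.96 ± 0.21, adjusted p = 0.0252).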

How the data were processed

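RNA of 18 samples was hybridised to Affymetrix Mouse Transcriptome 1.0 arrays. The deposited log2 values are the authors' robust multi-array averages (RMA: background adjustment, quantile normalization between arrays, log2). The tools listed in the submitters' processing notes are Expression Console (Affymetrix) and RMA, with no version. The build of the array annotation is not given in the sources used here. The labels give 300 ng of RNA per array and the methods another amount. Values were used as deposited, and 1339 of 72688 rows hold a value above 16, none of them a row of the genes described. A mean per group was fitted to all rows, controls included, in R 4.3.3 by limma 3.58.1, leaving 12 residual degrees of freedom, and p-values were adjusted by Benjamini-Hochberg within each contrast. Values after ± are standard errors, from a spread shared by all groups. The fit was tested on simulated data. With 3 arrays per group, their number limits the precision. Control rows, taken as all rows that are not transcript clusters, were called as well, 226 of 6732 for the lines without irradiation and 1680 for sshRNA at 7d IR. What these rows measure was not examined, so whether the adjusted p covers every difference between arrays is not known.

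Gene symbols came from the platform annotation and were brought up to date through a RefSeq table. The brightest cluster stood for a gene with more than 1. The dim limit of 4.67 was set on 1525 olfactory or vomeronasal receptor genes (their 95th percentile) and left 15541 genes. The genes described and the lists were chosen with earlier results of these data known. Values on every array were given for genes called between the lines or in a difference of responses, for the 4 with the largest change in each comparison within a line, and for Brca1 and Brca2, and Mre11a was added after its value was seen. The methods' analysis of variance was replaced by limma, with its threshold kept. Alternatives tried were the replicate block, leaving out each array, a fit to only the arrays compared, no moderation, cyclic loess, dropping dim clusters, centring on bright ones, averaging a gene's clusters and, added after seeing the data, centring within each chromosome. RefSeq windows of build GRCm38.p6 were matched by gene identifier for 27 of 32 genes.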

Additional observations from a re-analysis of the deposited data

Results flagged for a closer look

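The response at 7 days differed between the lines past the adjusted p, USFKD minus sshRNA, for 3 of the 32 genes. At that limit, 4.79% of genes above the dim limit and 1.41% of clusters were higher. Gen1 differed by 0.91 ± 0.18 (limma, adjusted p = 0.0193), Exo1 by 0.63 ± 0.14 (adjusted p = 0.0277) and Mre11a by 0.57 ± 0.12 (adjusted p = 0.0211), each with the lower change in sshRNA. Mre11a was under the fold limit and was not called. The calls of Gen1 and Exo1 are lost without single arrays. With arrays centred within each chromosome, Exo1 and Mre11a did not pass the adjusted p.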

How the results depend on the processing

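Of 75 calls of a gene in a comparison, 67 held under every alternative other than leaving out an array or centring within each chromosome, 52 held under all 26 alternatives, and 0 reversed. Centring within each chromosome, chosen after seeing the data, gave 3 calls between the lines at 1d IR in place of 6, of which 2 were among the 6, and gave 9 and 12 falls in sshRNA in place of 12 and 14 and 9 and 10 in USFKD in place of 10 and 13. For the difference in 7-day response, 2 genes were called, 1 after cyclic loess, 1 after centring within each chromosome and 0 when the 12 arrays compared were fitted alone, and leaving out each array gave 0 to 3. Leaving out an array gave 6 to 8 calls between the lines without irradiation, 6 to 7 at 1d IR and 10 to 14 at 7d IR. Against no IR at 7d IR it gave 12 to 14 in sshRNA and 9 to 10 in USFKD, and from 1d IR 13 to 16 and 10 to 14. Centring on bright clusters subtracted -0.13 to 0.11 from single arrays, and gave 18 lower at 7d IR in sshRNA in place of 12 and 15 in USFKD in place of 10. In sshRNA it subtracted -0.13 to -0.11 without irradiation and 0.03 to 0.08 at 7d IR. In USFKD it subtracted -0.13 to -0.08 and 0.05 to 0.11. It therefore lowered every change to 7d IR, and the share of all genes called under it was not counted. Why bright clusters differ between these arrays was not tested.

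The replicate numbers share a label only: deviations of same-numbered arrays from their group means correlated at -0.25 to 0.25 (45 pairs, median 0.01, 5 over 0.1). With the replicate block the calls were 8, 6 and 10 between the lines, 12 and 10 at 7d IR in sshRNA and USFKD, 14 and 13 from 1d IR, 2 for the difference in 7-day response and 0 elsewhere, the same counts as without it.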
